A study of Mus musculus with 15 samples.

Results

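The genes described here encode the Wnt ligands, the Frizzled receptors and the secreted Wnt antagonists of the Sfrp and Dkk families in mouse embryonic stem cells. They were chosen by the gene names on the array, which had to be Wnt, Fzd, Sfrp or Dkk followed by the number of a family member. The array held 37 such genes among 31753 gene names, namely 19 ligands, 10 Frizzled receptors, 4 Sfrp genes and 4 Dkk genes. Where several probes carried one name, the probe with the highest mean signal was used. A gene entered the tests if its signal was well above background on 3 or more arrays of any group, which 36 of the 37 genes and 25087 genes in total were. Wnt3a, a ligand that drives somite formation, was well above background on 0 of 15 arrays and has no value here.

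Total RNA of the cells, 500 ng per sample, was dyed with Cy3 and put on 15 Agilent arrays. The cells carried 1 of 2 hairpins, named shCTR and sh4, and were either untreated or given 1 µM retinoic acid for 72 hours. The groups were untreated shCTR with 4 arrays, untreated sh4 with 4, shCTR with retinoic acid (labelled shCTR 72 RA) with 4, and sh4 with retinoic acid (labelled sh4 72 RA) with 3. The labels do not state which gene sh4 targets. The title of the series names Phf19, a Polycomb-like protein that works with the histone methyltransferase complex PRC2. No label gives the cell line, the medium or the time in culture of the untreated cells, so retinoic acid and the 72 hours it lasted cannot be told apart. The replicates are called biological, but nothing says whether they came from separate cultures, and all p-values rest on the spread between these samples, which may be technical. The RNA was bulk RNA, in which fewer cells of a type and less RNA per cell cannot be told apart.

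Wnt proteins are secreted, lipid-modified ligands that bind Frizzled receptors on the cell surface. With the co-receptors Lrp5 and Lrp6 they stabilise beta-catenin, which acts with Tcf and Lef factors on target genes, and with other co-receptors they signal to the cytoskeleton and to calcium. Sfrp proteins carry a Frizzled-like domain and bind Wnts outside the cell, whereas Dkk1 blocks the pathway by binding Lrp5 and Lrp6. Wnt signals support the self-renewal of mouse embryonic stem cells and, in the embryo, help set up the primitive streak and the body axis.

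Levels are given as the log2 of the processed spot signal minus the 75th percentile of the same array, so that 0 is the 75th percentile and each step of 1 doubles the signal. Levels of different genes come from different probes and are not compared. Array values are listed in the order of the replicate numbers, which are 1, 3 and 4 for sh4 with retinoic acid. Differences are log2 fold changes with their standard error, and adjusted p-values come from limma with Benjamini-Hochberg adjustment over the 25087 genes. A gene was called when its adjusted p was under 0.05. Where the arrays of groups are said not to overlap, no share of all genes without overlap is given beside it. Across the arrays 74.4% to 80.0% of the spots were well above background and 0 were saturated. Of the 15 arrays, 3 carry a scanner rating that asks for evaluation. The level of Phf19 was -0.93, -0.98, -0.70 and -0.69 in untreated shCTR against -2.61, -2.54, -2.51 and -2.54 in untreated sh4, and with retinoic acid -3.01, -3.06, -3.05 and -2.80 in shCTR against -3.90, -3.97 and -3.71 in sh4. It differed between the hairpins by -1.73 ± 0.09 in untreated cells (adjusted p = 7.38e-09) and -0.88 ± 0.09 with retinoic acid (adjusted p = 1.94e-05), which is 30.2% and 54.4% of the shCTR level. All 12 embryonic stem cell markers examined, among them Pou5f1 and Nanog, were well above background in untreated cells, and 11 of 12 fell with retinoic acid in shCTR and 12 of 12 in sh4.

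Promoters of 5 genes whose levels changed with the hairpin in these data are shown first, because the sequence around the start of a gene is a feature the choice of genes did not use. Polycomb complexes are known to bind CpG-rich promoters. Each line gives the 250 bases before the RefSeq start on GRCm38.p6, 5′ to 3′ on the strand of the gene, with CG dinucleotides in capitals. Wnt4, Wnt7a and Wnt9a are ligands that were higher in sh4 in both treatments. Sfrp5 was lower in sh4 in both treatments, and Dkk1 was lower in sh4 with retinoic acid. The windows lie at chr4:137277385-137277634 (plus strand), chr6:91411354-91411603 (minus strand), chr11:59306680-59306929 (plus strand), chr19:30549497-30549746 (minus strand) and chr19:42202253-42202502 (minus strand).
Wnt4: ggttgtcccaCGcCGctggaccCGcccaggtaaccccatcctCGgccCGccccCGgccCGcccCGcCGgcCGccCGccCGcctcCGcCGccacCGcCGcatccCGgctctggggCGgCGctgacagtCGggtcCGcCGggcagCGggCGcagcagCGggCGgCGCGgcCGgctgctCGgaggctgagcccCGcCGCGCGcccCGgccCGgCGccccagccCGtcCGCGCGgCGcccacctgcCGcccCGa
Wnt7a: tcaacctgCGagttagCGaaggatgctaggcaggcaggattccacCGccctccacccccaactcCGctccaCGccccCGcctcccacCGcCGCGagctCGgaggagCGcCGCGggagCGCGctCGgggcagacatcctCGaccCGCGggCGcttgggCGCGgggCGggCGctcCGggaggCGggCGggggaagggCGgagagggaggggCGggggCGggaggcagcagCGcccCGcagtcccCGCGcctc
Wnt9a: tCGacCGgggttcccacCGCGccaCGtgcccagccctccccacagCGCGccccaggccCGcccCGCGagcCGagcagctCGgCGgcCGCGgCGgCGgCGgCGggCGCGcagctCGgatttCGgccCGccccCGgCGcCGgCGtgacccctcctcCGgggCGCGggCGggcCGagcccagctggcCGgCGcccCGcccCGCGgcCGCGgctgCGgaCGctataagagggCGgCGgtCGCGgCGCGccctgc
Dkk1: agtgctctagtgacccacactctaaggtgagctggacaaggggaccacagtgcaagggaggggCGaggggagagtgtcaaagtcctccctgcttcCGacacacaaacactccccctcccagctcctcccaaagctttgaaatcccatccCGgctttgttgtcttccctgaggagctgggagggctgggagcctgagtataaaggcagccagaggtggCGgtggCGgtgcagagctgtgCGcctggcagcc
Sfrp5: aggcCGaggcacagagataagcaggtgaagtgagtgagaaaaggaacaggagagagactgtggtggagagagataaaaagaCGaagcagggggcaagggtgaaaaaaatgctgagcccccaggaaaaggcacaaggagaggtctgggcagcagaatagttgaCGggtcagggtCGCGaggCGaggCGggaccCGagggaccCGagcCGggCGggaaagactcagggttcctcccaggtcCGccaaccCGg
The windows of the 3 ligands are dense in capitals, with 44 CG dinucleotides in Wnt4, 34 in Wnt7a and 48 in Wnt9a. Those of the antagonists hold 6 in Dkk1 and 13 in Sfrp5. The RefSeq table held 28 such windows for 25 of the 37 genes, and 12 genes were not among its entries. The median was 22 CG per window over these 28 and 6 over all 32851 windows of the table. Windows with at least 10 CG made up 22 of the 28 and 37.8% of all windows. Among genes not called in either hairpin comparison, Wnt2b, which was dim on most arrays, holds 36, and Fzd9 holds 42. Fzd5 and Fzd4, each called lower in sh4 in a treatment, hold 32 and 25, while Fzd1, Sfrp2 and Fzd7, each called higher, hold 12, 16 and 17. Fzd10, called lower in untreated sh4 and higher in sh4 with retinoic acid, holds 37. Whether the CG count goes with the hairpin differences was not tested.

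Motifs were counted in the same windows on both strands. The core bound by Tcf and Lef factors, searched as CTTTGA and CTTTGT, was found in 7 of the 28 windows and in 27.6% of all windows. The window of Dkk1, itself known as a target of beta-catenin, holds 3 matches and that of Fzd1 holds 2. The half-site of nuclear receptors, searched only as AGGTCA and not particular to those of retinoic acid, was found in 1 of the 28 windows. That was the window of Wnt16, and the share of all windows was 14%. These counts describe letters in 250 bases and say nothing of what binds there.

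By the fitted values, the largest rises in sh4 were those of ligands, Wnt4, Wnt8a, Wnt7b and Wnt7a in untreated cells and Wnt6 and Wnt10a with retinoic acid. The order in untreated cells depends on how background is treated. After normexp correction the untreated rises of Wnt8a and Wnt7a were 0.81 and 0.66. Those of the receptors Fzd2 and Fzd7 were at least 1.35 and 1.08 in every setting. In untreated cells 12 of the 36 genes were higher in sh4 and 6 were lower, where 14.4% of all genes tested were higher and 14.1% were lower. With retinoic acid 13 were higher and 4 lower, against 10.9% and 10.3% of all genes. Among the ligands, 6 of 18 were higher in untreated cells and 7 of 18 with retinoic acid, and 0 were lower in either. Frizzled receptors went both ways, with 5 of 10 higher and 2 lower in untreated cells and 6 higher and 1 lower with retinoic acid. Of the 8 antagonists, 1 was higher and 4 were lower in untreated cells, and 0 were higher and 3 lower with retinoic acid. The median log2 fold change of the ligands was 0.34 in untreated cells and 0.17 with retinoic acid, that of the receptors was 0.21 and 0.41, and that of the antagonists was -0.34 and -0.23, while the median of all genes was 0.02 and 0.04. The size of many effects depends on how background is treated: of the 113 differences called among these genes in the 5 tests, 34 were smaller by more than 1.5 times after normexp background correction and 37 in the authors' deposited log2 table.

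**Figure D1:**
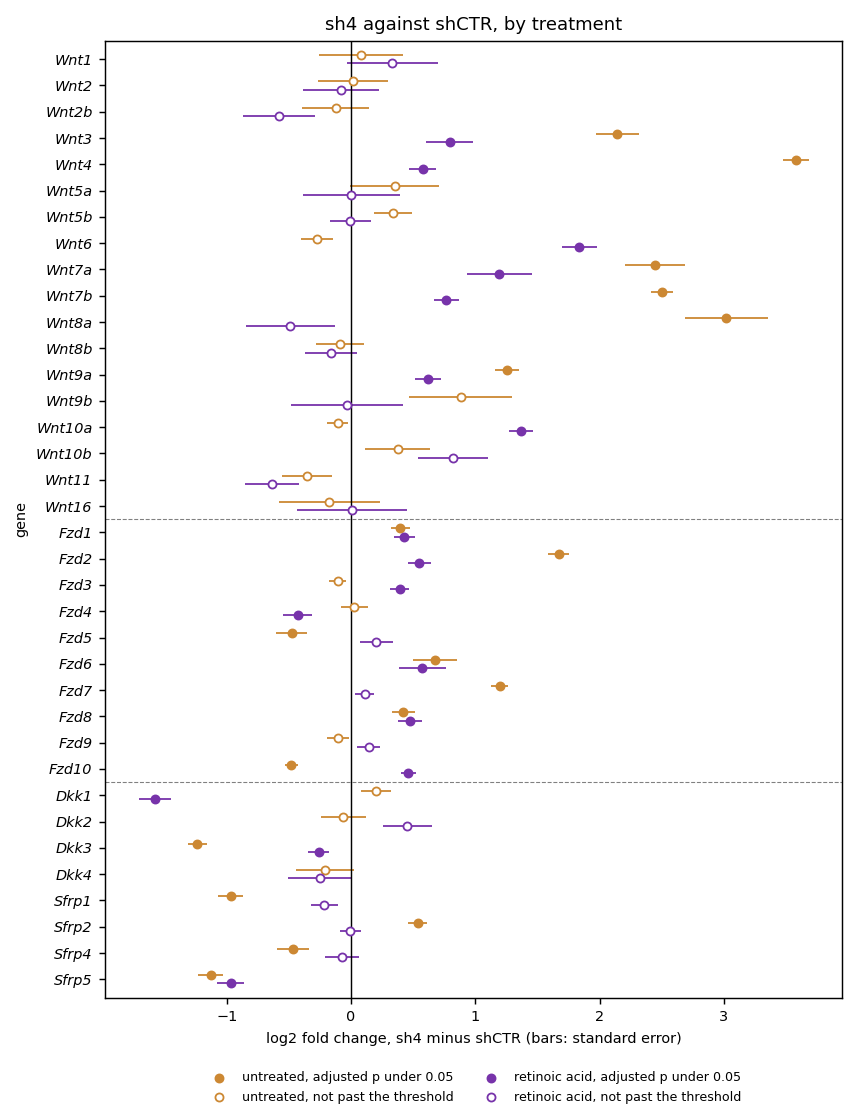
Log2 fold change of sh4 over shCTR for the 36 genes tested, in untreated cells (orange) and with retinoic acid (purple), with bars for the standard error and filled points for adjusted p under 0.05. Wnt4 has the largest untreated value, 3.58, and a much smaller one with retinoic acid, 0.58; the untreated Wnt3 value rests on shCTR arrays that were not well above background.

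Among the ligands, Wnt4 rose most in untreated sh4 cells. Wnt4 is needed for kidney tubules and the female reproductive tract. Its level was -5.38, -5.59, -5.33 and -5.37 on the untreated shCTR arrays and -1.97, -1.93, -1.65 and -1.79 on the untreated sh4 arrays. All sh4 arrays lay above all shCTR arrays, a difference of 3.58 ± 0.10 or 11.96-fold (adjusted p = 5.57e-11). With retinoic acid the levels were -1.56, -1.23, -1.33 and -1.35 in shCTR against -0.59, -0.91 and -0.88 in sh4. Untreated shCTR was far below the other 3 groups, and the hairpins did not overlap with retinoic acid either. The hairpin difference with retinoic acid was 0.58 ± 0.11 (adjusted p = 0.00202), and the interaction, the difference with retinoic acid minus that without, was -3.004 ± 0.15 (adjusted p = 2.78e-08). The untreated difference and the interaction were smaller after normexp correction and still called, the untreated difference at 2.02 and the interaction at -1.55. The 60-base probe for Wnt4 is placed by the files at chr4:136851690-136852258 on mm9, a span of 569 bases.

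Wnt7a and Wnt7b, close relatives that share the co-factors Reck and Gpr124 in brain vessels, were both higher in sh4 in both treatments. The Wnt7b level was -4.69, -4.86, -4.52 and -4.46 in untreated shCTR against -2.29, -2.18, -2.08 and -1.97 in untreated sh4. With retinoic acid it was -3.39, -3.26, -3.30 and -3.36 in shCTR against -2.53, -2.55 and -2.59 in sh4. Untreated sh4 had the highest Wnt7b of the 4 groups, and no arrays overlapped between the hairpins in either treatment. The hairpin difference was 2.50 ± 0.09, or 5.66-fold, in untreated cells (adjusted p = 4.54e-10) and 0.77 ± 0.10 with retinoic acid (adjusted p = 8.7e-05). Wnt7a, which patterns the limb and the uterus, stood at -6.46, -6.56, -7.59 and -6.22 in untreated shCTR, where 3 of 4 arrays were well above background, and at -4.53, -4.46, -4.16 and -3.90 in untreated sh4. Its values with retinoic acid were -3.53, -3.56, -3.27 and -3.53 in shCTR against -2.31, -2.35 and -2.19 in sh4. The sh4 arrays were above the shCTR arrays in both treatments, by 2.45 ± 0.24 in untreated cells (adjusted p = 3.58e-06) and by 1.19 ± 0.26 with retinoic acid (adjusted p = 0.00452). After normexp correction the untreated differences were 1.60 for Wnt7b and 0.66 for Wnt7a, still called. The interaction was -1.73 for Wnt7b (adjusted p = 1.22e-06), and -0.95 after normexp correction. For Wnt7a it was -1.25 (adjusted p = 0.0225), but it was 0.31 after normexp background correction and 0.083 in the authors' log2 table, neither of which was called. The Wnt7a interaction also lost its call without replicate 1 or 3 of sh4 with retinoic acid (adjusted p = 0.0506 and 0.051).

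Wnt8a and Wnt3 are ligands of the early embryo, Wnt3 being required for the primitive streak. Wnt8a levels were -6.72, -7.87, -5.80 and -6.59 in untreated shCTR, with 3 of 4 arrays well above background, and -4.06, -3.72, -3.61 and -3.51 in untreated sh4. With retinoic acid they were -4.60, -4.65, -4.07 and -3.95 in shCTR against -4.73, -4.92 and -4.78 in sh4. Without retinoic acid every sh4 array lay above every shCTR array, and with it every sh4 array lay below. The untreated difference was 3.02 ± 0.33 (adjusted p = 1.08e-05), the one with retinoic acid, -0.49 ± 0.36, was not called (adjusted p = 0.428), and the interaction was -3.51 ± 0.49 (adjusted p = 0.000188). After normexp correction the untreated Wnt8a difference was 0.81 and the interaction -1.004, both called. Wnt3 was not well above background on any untreated shCTR array, with measured levels of -8.20, -8.20, -8.96 and -8.20, while untreated sh4 arrays gave -6.53, -6.36, -6.02 and -6.09. Its levels with retinoic acid were -5.18, -5.05, -5.31 and -5.50 in shCTR against -4.40, -4.58 and -4.42 in sh4. By the processed signal, Wnt3 was at least 2.90-fold higher in untreated sh4. This bound was taken against the lowest signal that counted as well above background on each shCTR array. The adjusted p of 6.52e-07 is that of the measured difference, with group means of -6.25 and -8.39. With retinoic acid the Wnt3 groups did not overlap either and differed by 0.79 ± 0.19 (adjusted p = 0.00831). The Wnt3 interaction, -1.35 (adjusted p = 0.00203), uses the dim shCTR arrays and was 0.29 after normexp correction and 0.053 in the authors' log2 table. After normexp correction the Wnt3 difference was called in neither untreated cells (0.12, adjusted p = 0.602) nor retinoic acid (0.0847), and the Wnt4 difference with retinoic acid was lost as well (0.102).

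Wnt9a, a ligand of developing joints, was -3.10, -3.05, -3.26 and -3.36 in untreated shCTR against -1.83, -2.05, -1.95 and -1.91 in untreated sh4. With retinoic acid Wnt9a was 0.06, 0.14, 0.16 and -0.01 in shCTR against 0.45, 0.84 and 0.84 in sh4. The hairpins did not overlap in either treatment and differed by 1.26 ± 0.10 in untreated cells (adjusted p = 4.44e-07) and 0.62 ± 0.11 with retinoic acid (adjusted p = 0.000855). The interaction of -0.63 was called (adjusted p = 0.00672) but not after normexp correction, with -0.31 (adjusted p = 0.29), with median scaling (0.0585) or in the authors' log2 table (0.196).

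Wnt6 and Wnt10a, whose genes are neighbours on chromosome 1, were the reverse case: their hairpin difference appeared with retinoic acid. Wnt6 is known from the primitive endoderm, and Wnt10a from teeth and hair. Wnt6 levels were -1.81, -1.55, -1.59 and -1.71 in untreated shCTR against -2.22, -1.82, -1.78 and -1.93 in untreated sh4. With retinoic acid they were -0.15, -0.08, 0.02 and -0.21 in shCTR against 2.10, 1.49 and 1.61 in sh4. The untreated groups overlapped, while every sh4 array with retinoic acid stood far above every other array. Wnt6 was 3.57-fold higher in sh4 with retinoic acid, a difference of 1.84 ± 0.14 (adjusted p = 1.13e-06), against -0.27 ± 0.13 in untreated cells (adjusted p = 0.157). The Wnt10a levels were -3.47, -3.29, -3.31 and -3.35 in untreated shCTR, -3.70, -3.36, -3.39 and -3.40 in untreated sh4, -3.74, -3.63, -3.71 and -3.90 in shCTR with retinoic acid, and -2.28, -2.40 and -2.45 in sh4 with retinoic acid. The last group lay above all arrays of the other 3. Its difference from shCTR was 1.37 ± 0.09 (adjusted p = 3.74e-07), against -0.11 ± 0.09 in untreated cells (adjusted p = 0.454). Both interactions were called, at 2.11 ± 0.19 for Wnt6 (adjusted p = 5.29e-06) and 1.47 ± 0.13 for Wnt10a (adjusted p = 3.14e-06).

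**Figure D2:**
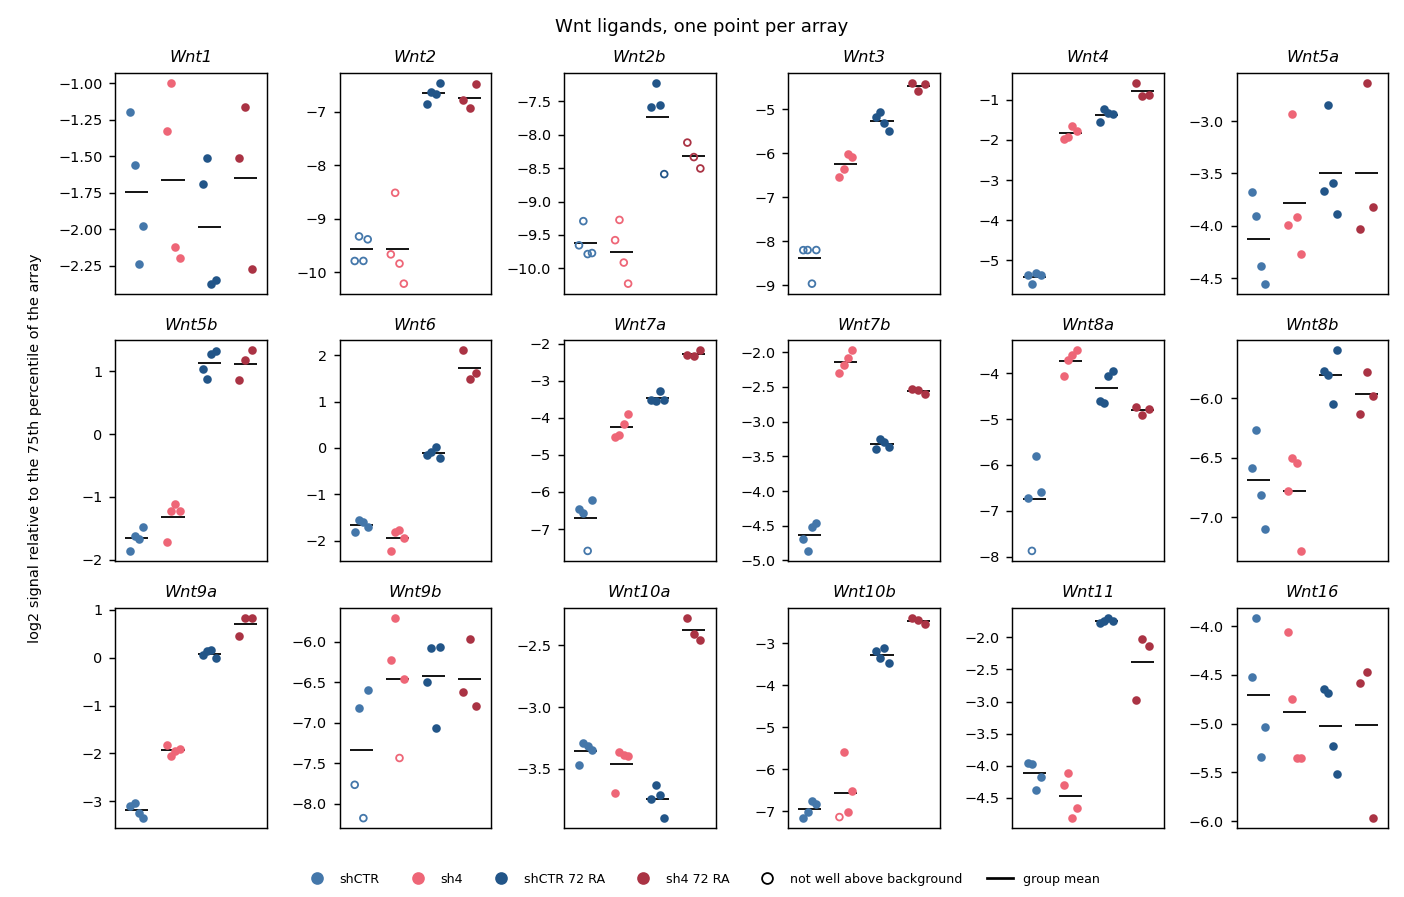
Log2 signal of the 18 ligands tested, relative to the 75th percentile of each array, with one point per array, open where the probe was not well above background, and a line at the group mean. Wnt4, Wnt7b and Wnt8a rise between untreated shCTR and untreated sh4, and Wnt6 and Wnt10a are highest in sh4 with retinoic acid.

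The other ligands were not called in a hairpin comparison. Wnt10b, which favours bone over fat, came near the threshold with retinoic acid: its levels were -3.19, -3.35, -3.11 and -3.47 in shCTR against -2.39, -2.44 and -2.55 in sh4, without overlap, and the difference was 0.82 ± 0.28 (adjusted p = 0.0553). It was called without replicate 1, 2 or 3 of untreated sh4 (adjusted p = 0.0368, 0.00168 and 0.0488). It was also called after normexp correction (0.00942), under quantile normalisation (0.0376) and median scaling (0.0464), in the authors' log2 table (5.41e-06), with only the groups compared (0.00239), with the replicate block (0.0442) and with array weights (0.0111). Wnt11, a ligand that acts mainly outside beta-catenin, also came near it, at -1.78, -1.75, -1.69 and -1.75 in shCTR against -2.98, -2.02 and -2.13 in sh4, a difference of -0.64 ± 0.22 (adjusted p = 0.0534). It was called without replicate 3 or 4 of sh4 with retinoic acid (0.0284 and 0.0498) and without replicate 2 or 3 of untreated sh4 (0.046 and 0.0467). Wnt11 was also called after normexp correction (0.0456), under quantile normalisation (0.022) and median scaling (0.0481), in the authors' log2 table (0.023), among genes above background on all arrays (0.0461) and with array weights (0.00604). Wnt5b, another ligand outside beta-catenin, differed by 0.34 ± 0.15 in untreated cells (95% interval 0.01 to 0.66) and by -0.01 ± 0.16 with retinoic acid (95% interval -0.36 to 0.35). Without replicate 1 of untreated sh4 the untreated value was 0.47 and called (adjusted p = 0.0219). Wnt2b was well above background on 0 of 8 untreated arrays, on 3 of the 4 shCTR arrays with retinoic acid and on 0 of the 3 of sh4. Wnt1, Wnt2, Wnt5a, Wnt8b, Wnt9b and Wnt16 also missed the threshold in both treatments. Over the 15 arrays Wnt5a, which guides cell movement, ranged from -4.55 to -2.64, and its hairpin difference had a 95% interval of -0.43 to 1.13 in untreated cells. Wnt16 ranged from -5.97 to -3.91, with an interval of -1.06 to 0.71. The hairpins overlapped in both treatments for each of these 6. Wnt8b, a forebrain ligand, ranged from -7.28 to -5.60 with an interval of -0.51 to 0.33, and Wnt9b from -8.18 to -5.70 with -0.02 to 1.78. A second probe of Wnt16 did not pass the filter, being well above background on 7 of 15 arrays. Its mean signal was 9.52, against 59.3 for the probe used. A second probe of Wnt1 failed the filter too, being well above background on 1 of 15 arrays. The mean signal of that Wnt1 probe was far below that of the probe used, so the Wnt1 values rest on 1 probe.

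Several of these ligands split by slide, the glass slide that carried up to 4 of the arrays, with the groups spread over 4 slides. Wnt1, a midbrain ligand, was -1.20, -1.56, -2.24 and -1.98 on the untreated shCTR arrays of slides 1 to 4 and -1.33, -1.001, -2.13 and -2.20 on those of untreated sh4, so that slides 1 and 2 were higher than slides 3 and 4 in both. With slide as a block in the fit, Wnt9b, an inducer of kidney tubules, was called in untreated cells at 0.88 (adjusted p = 0.00641), and so was Wnt5b at 0.34 (adjusted p = 0.0188). Wnt11 at -0.66 (adjusted p = 0.0447) and Wnt2b (adjusted p = 0.0112) were called lower with retinoic acid. All 113 differences called among these genes in the 5 tests stayed called with the block. Within the slides, Wnt4 differed by 3.41 to 3.68 in untreated cells over 4 slides, Wnt7b by 2.40 to 2.68 and Wnt8a by 2.19 to 4.15, and Wnt6 differed by 1.57 to 2.25 with retinoic acid over 3 slides.

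Among the Frizzled receptors, Fzd2 and Fzd7 rose most in untreated sh4. With Fzd1 they form one branch of the family. Fzd2 levels were -0.77, -0.60, -0.55 and -0.55 in untreated shCTR against 1.01, 0.96, 1.15 and 1.08 in untreated sh4. They were 3.06, 2.91, 3.18 and 3.03 in shCTR against 3.40, 3.69 and 3.70 in sh4 with retinoic acid. Each group of Fzd2 arrays stood apart from the other 3, and sh4 was higher by 1.67 ± 0.09 in untreated cells (adjusted p = 8.77e-09) and by 0.55 ± 0.09 with retinoic acid (adjusted p = 0.000773). Fzd7, the main Frizzled of pluripotent cells, was -0.60, -0.86, -0.88 and -0.77 in untreated shCTR against 0.46, 0.44, 0.35 and 0.41 in untreated sh4. With retinoic acid it was 0.36, 0.49, 0.35 and 0.40 in shCTR against 0.60, 0.47 and 0.46 in sh4. By this probe untreated shCTR was the low group, and the other 3 lay close together. By the second probe of Fzd7 they did not. Its group means were -4.64 in untreated shCTR and -3.06 in untreated sh4, and -1.50 in shCTR and -0.67 in sh4 with retinoic acid. The Fzd7 hairpin difference was 1.20 ± 0.07 in untreated cells (adjusted p = 2.21e-08) and 0.11 ± 0.07 with retinoic acid (adjusted p = 0.38, 95% interval -0.05 to 0.27). Fzd1 was -3.64, -3.69, -3.84 and -3.93 in untreated shCTR against -3.21, -3.35, -3.47 and -3.49 in untreated sh4, and -1.49, -1.48, -1.52 and -1.58 in shCTR against -1.08, -1.07 and -1.12 in sh4 with retinoic acid. It was higher in sh4 without overlap in both treatments, by 0.40 ± 0.08 (adjusted p = 0.0014) and 0.43 ± 0.08 (adjusted p = 0.00209).

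Fzd2 and Fzd7 each had a second probe. The second probe of Fzd2 gave 1.03 ± 0.17 in untreated cells (adjusted p = 0.00036) and 0.59 ± 0.18 with retinoic acid (adjusted p = 0.0334). Its interaction of -0.43 ± 0.25 was not called (adjusted p = 0.279), whereas that of the first probe was -1.12 ± 0.13 (adjusted p = 3.3e-05). The second probe of Fzd7 gave 1.58 ± 0.35 in untreated cells (adjusted p = 0.0034) and an interaction of -0.75 ± 0.51 that was not called (adjusted p = 0.384), against -1.09 ± 0.10 (adjusted p = 5.47e-06) for the first probe. The untreated rise of both receptors was called by both of their probes, and the interaction by 1 of the 2.

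Fzd10 and Fzd5 were lower in untreated sh4. The levels of Fzd10 were 0.46, 0.57, 0.45 and 0.48 in untreated shCTR against 0.02, -0.01, 0.002 and 0.02 in untreated sh4, and -1.74, -1.74, -1.80 and -1.82 in shCTR against -1.40, -1.29 and -1.25 in sh4 with retinoic acid. Its order turned: sh4 was below shCTR without retinoic acid, with a difference of -0.48 ± 0.05 (adjusted p = 9.87e-06) and above it with retinoic acid, with 0.46 ± 0.06 (adjusted p = 6.1e-05), both without overlap. The interaction was 0.94 ± 0.08 (adjusted p = 2.06e-06). Fzd5, needed for the yolk sac and the eye, was -2.31, -2.12, -1.74 and -1.83 in untreated shCTR against -2.68, -2.51, -2.34 and -2.39 in untreated sh4, and -4.31, -4.07, -4.38 and -4.35 in shCTR against -4.03, -4.07 and -4.13 in sh4 with retinoic acid. The Fzd5 groups did not overlap in untreated cells, with a difference of -0.48 ± 0.12 (adjusted p = 0.00948), and overlapped with retinoic acid, with 0.20 ± 0.13 (adjusted p = 0.358). The Fzd5 interaction of 0.68 ± 0.18 (adjusted p = 0.0165) was not called by its second probe, 0.22 ± 0.11 (adjusted p = 0.194).

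Fzd3 and Fzd6, the branch tied to planar polarity, were both higher in sh4 with retinoic acid. Fzd3 was -0.70, -0.67, -0.60 and -0.67 in untreated shCTR against -0.92, -0.80, -0.56 and -0.78 in untreated sh4, which overlapped, and -0.27, -0.26, -0.17 and -0.20 in shCTR against 0.20, 0.13 and 0.17 in sh4 with retinoic acid, which did not. It was called with retinoic acid at 0.39 ± 0.08 (adjusted p = 0.00204) and in the interaction at 0.50 ± 0.10 (adjusted p = 0.00338). Fzd6 was -4.57, -4.31, -4.05 and -3.99 in untreated shCTR against -3.95, -3.62, -3.35 and -3.31 in untreated sh4, and -2.97, -2.74, -2.58 and -2.36 in shCTR against -2.18, -2.21 and -1.87 in sh4 with retinoic acid. The sh4 arrays lay higher in both treatments, by 0.67 ± 0.18 (adjusted p = 0.0103) and 0.57 ± 0.19 (adjusted p = 0.0469). With retinoic acid Fzd6 lost its call without any 1 of replicates 1, 3 and 4 of sh4 or 1, 2 and 3 of shCTR with retinoic acid, or replicate 2 of untreated sh4, or 2 or 3 of untreated shCTR (adjusted p = 0.0546 to 0.172). With slide as a block its adjusted p was 1.23e-05 in untreated cells and 6.17e-05 with retinoic acid. Under median scaling Fzd6 was called in neither (0.0769 and 0.159), and Fzd3 was not called with retinoic acid (0.0803). Over all 28 alternatives Fzd6 kept its call in 23 in untreated cells and in 13 with retinoic acid.

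Fzd8 was -4.74, -4.82, -4.70 and -4.90 in untreated shCTR against -4.45, -4.34, -4.22 and -4.47 in untreated sh4. With retinoic acid Fzd8 was -3.44, -3.32, -2.995 and -3.25 in shCTR against -2.72, -2.82 and -2.79 in sh4. It was higher in sh4 in both treatments without overlap, by 0.42 ± 0.09 (adjusted p = 0.00324) and 0.47 ± 0.10 (adjusted p = 0.00364). Fzd4, which also binds norrin, was -3.23, -3.64, -3.26 and -3.40 in untreated shCTR against -3.31, -3.34, -3.35 and -3.43 in untreated sh4, and -0.38, -0.47, -0.13 and -0.07 in shCTR against -0.68, -0.83 and -0.56 in sh4 with retinoic acid. It was the one receptor called lower in sh4 with retinoic acid, a difference of -0.43 ± 0.12 (adjusted p = 0.0178), and this call was lost when replicate 1 or 3 of sh4 or replicate 3 or 4 of shCTR with retinoic acid was left out (adjusted p = 0.0524 to 0.0813). After normexp correction Fzd4 was not called with retinoic acid (0.0932), nor Fzd8 (0.517) or Fzd1 (0.162) in untreated cells. Over all 28 alternatives the untreated Fzd8 call was kept in 24, and the Fzd4 call with retinoic acid in 21. Fzd9 was not called for the hairpin, with -0.10 ± 0.09 in untreated cells (95% interval -0.29 to 0.08) and 0.14 ± 0.09 with retinoic acid (95% interval -0.06 to 0.35).

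**Figure D3:**
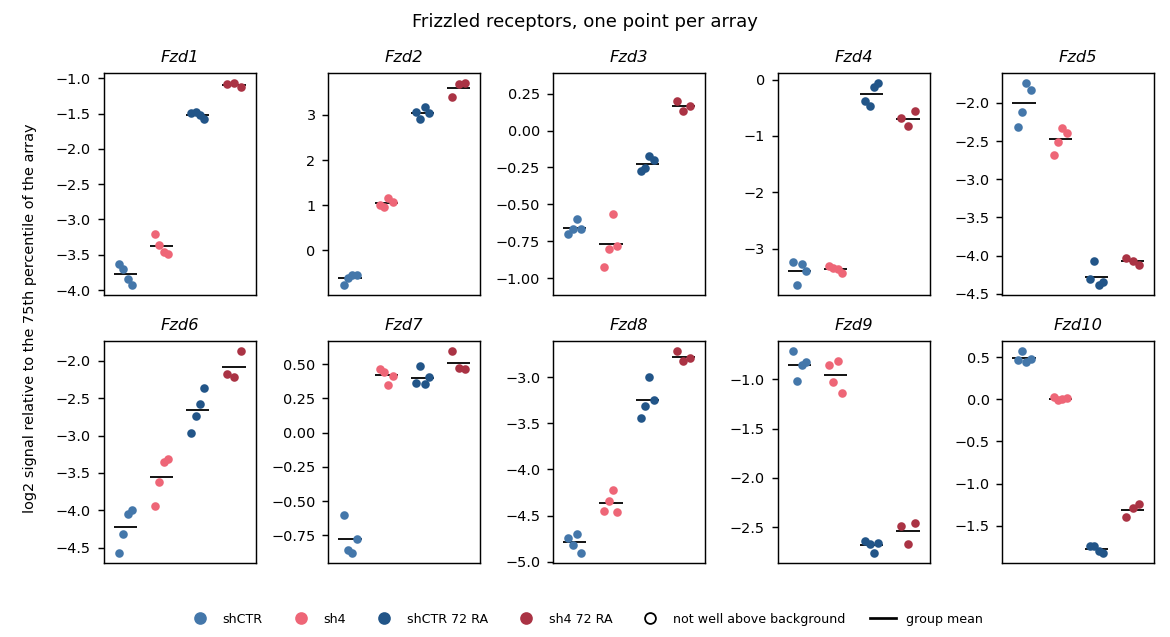
Log2 signal of the 10 Frizzled receptors relative to the 75th percentile of each array, with one point per array and a line at the group mean. Fzd2 and Fzd7 are lowest in untreated shCTR, and Fzd10, Fzd5 and Fzd9 are lower with retinoic acid.

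More antagonists were lower than higher in sh4. Dkk3, a divergent Dkk, was -0.20, -0.23, -0.40 and -0.29 in untreated shCTR against -1.36, -1.61, -1.68 and -1.41 in untreated sh4. With retinoic acid it was 1.996, 1.84, 1.90 and 1.97 in shCTR against 1.70, 1.62 and 1.66 in sh4. The sh4 arrays lay below the shCTR arrays in both treatments, by 1.24 (adjusted p = 5.1e-08) and by 0.26 (adjusted p = 0.0411), and the interaction was 0.98 ± 0.11 (adjusted p = 4.44e-05). The smaller of these calls, that with retinoic acid, was lost without any 1 of replicates 1, 3 and 4 of sh4 or 1, 3 and 4 of shCTR with retinoic acid, or replicate 4 of untreated shCTR (adjusted p = 0.0528 to 0.12).

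Sfrp5, known from the anterior visceral endoderm and the foregut, had levels of -0.87, -0.88, -0.87 and -0.69 in untreated shCTR against -2.11, -1.95, -1.90 and -1.87 in untreated sh4. With retinoic acid they were 2.22, 2.12, 2.54 and 2.50 in shCTR against 1.31, 1.31 and 1.52 in sh4. Sfrp5 was lower in sh4 without overlap in both treatments, with differences of -1.13 ± 0.10 (adjusted p = 1.47e-06) and -0.97 ± 0.11 (adjusted p = 2.96e-05). The interaction of 0.16 ± 0.15 was not called (adjusted p = 0.561, 95% interval -0.16 to 0.48). Dkk1, which blocks Lrp5 and Lrp6 and is needed for the head, was -4.31, -3.99, -3.97 and -3.92 in untreated shCTR against -3.96, -4.03, -3.81 and -3.59 in untreated sh4. With retinoic acid Dkk1 was 1.84, 1.56, 1.85 and 1.99 in shCTR against 0.33, 0.09 and 0.29 in sh4. The untreated groups overlapped, with a difference of 0.20 ± 0.12 (adjusted p = 0.274), while with retinoic acid every sh4 array lay below every shCTR array, a difference of -1.58 ± 0.13, which is 2.98-fold lower (adjusted p = 2.12e-06). The interaction was -1.78 ± 0.18 (adjusted p = 1.21e-05).

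Sfrp1, Sfrp2 and Sfrp4 changed with the hairpin in untreated cells. Sfrp1 was 0.15, 0.15, 0.35 and 0.19 in untreated shCTR against -0.71, -0.90, -0.66 and -0.76 in untreated sh4, and -1.67, -1.65, -1.44 and -1.41 in shCTR against -2.001, -1.73 and -1.55 in sh4 with retinoic acid. It was lower in sh4 in untreated cells, with a difference of -0.97 ± 0.10 (adjusted p = 6.29e-06), where the groups did not overlap, and the interaction of 0.75 ± 0.15 was called (adjusted p = 0.00258). Sfrp2 was the one antagonist higher in untreated sh4, at -1.30, -1.40, -1.33 and -1.15 in shCTR against -0.82, -0.89, -0.65 and -0.67 in sh4, a difference of 0.54 ± 0.08 (adjusted p = 0.000122). With retinoic acid its levels, -2.69, -2.69, -2.68 and -2.54 in shCTR against -2.71, -2.72 and -2.54 in sh4, overlapped, with a difference of -0.01 ± 0.08 (95% interval -0.19 to 0.17) and an interaction of -0.54 ± 0.11 (adjusted p = 0.0038). Sfrp4 was -1.36, -1.46, -1.54 and -1.42 in untreated shCTR against -1.89, -1.89, -1.91 and -1.97 in untreated sh4, without overlap and lower in sh4, a difference of -0.47 ± 0.13 (adjusted p = 0.0147). With retinoic acid Sfrp4 was -6.76, -6.75, -6.79 and -6.54 in shCTR against -6.87, -7.13 and -6.35 in sh4, which overlapped. The untreated Sfrp4 call was lost under quantile normalisation (adjusted p = 0.129) and median scaling (0.0613), and the Sfrp2 interaction under median scaling (0.205). Leaving out the 3 arrays rated for evaluation also lost the untreated Sfrp4 call. Dkk2 and Dkk4 were not called for the hairpin in either treatment, and Dkk2 was well above background on 0 of 8 untreated arrays.

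**Figure D4:**
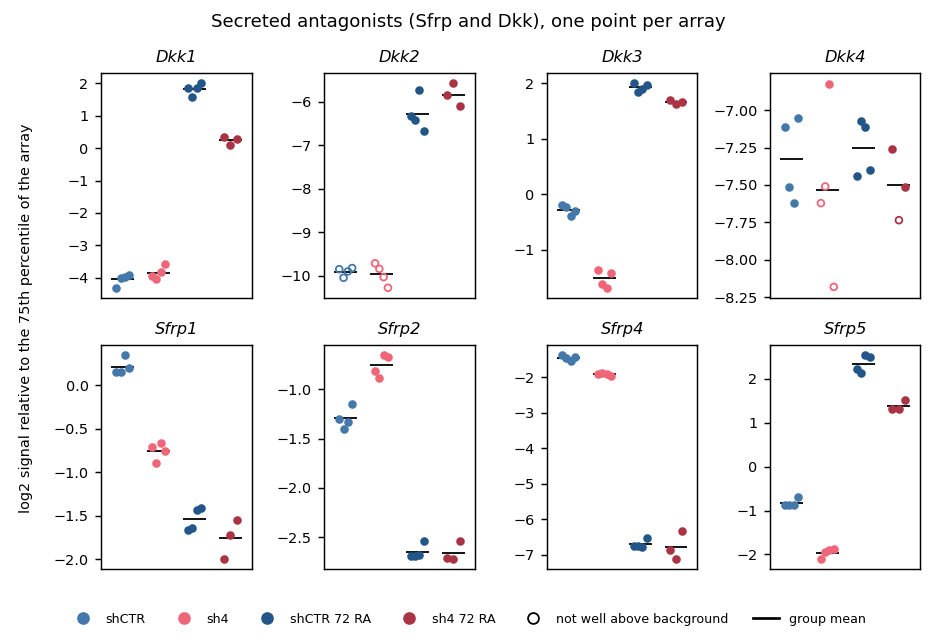
Log2 signal of the 8 Dkk and Sfrp genes relative to the 75th percentile of each array, with one point per array, open where the probe was not well above background, and a line at the group mean. Dkk3, Sfrp1 and Sfrp5 are lower in untreated sh4 than in untreated shCTR, and Dkk1 differs between the hairpins with retinoic acid.

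Markers of several cell types were counted as higher or lower in sh4 in the same arrays. Among all genes tested, 14.4% were higher and 14.1% lower in untreated sh4, and 10.9% and 10.3% with retinoic acid. Of 12 trophectoderm markers 10 were higher in untreated sh4 and 0 lower, and their summed signal, in units of the 75th percentile, was 9.73 to 11.6 on the untreated shCTR arrays and 79.4 to 90.0 on those of sh4. Elf5 was not well above background on any untreated shCTR array. With retinoic acid 4 of the 12 were higher and 4 lower, and the sums were 301 to 326 in shCTR and 274 to 334 in sh4. Of 17 markers of visceral and parietal endoderm 0 were higher and 10 lower in untreated sh4, and 0 higher and 17 lower with retinoic acid, where the sums were 318 to 337 in shCTR and 133 to 143 in sh4. In untreated cells they were 49.3 to 54.8 in shCTR and 35.5 to 39.95 in sh4, with Ttr not well above background on any array of either and Afp on none of sh4. Of 10 fibroblast markers tested 5 were higher and 3 lower in untreated sh4, with sums of 2.55 to 2.89 in shCTR and 1.39 to 1.47 in sh4, and 2 were higher and 1 lower with retinoic acid, with sums of 17.6 to 23.8 and 25.7 to 27.2. Col3a1, Dcn, Lum and Postn were not well above background on any untreated shCTR array. Of 12 endothelial and blood markers 2 were higher and 6 lower in untreated sh4, and 0 higher and 5 lower with retinoic acid. Of 12 stem cell markers 0 were higher and 3 lower, then 1 higher and 6 lower with retinoic acid. Of 14 neural markers 3 were higher and 3 lower, then 4 higher and 1 lower. Of 11 markers of mesoderm and primitive streak 3 were higher and 3 lower, then 0 higher and 2 lower. The part of these markers in the differences of the ligands, receptors and antagonists was not tested.

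Of the 36 genes, 17 had a hairpin effect that differed between treatments by the interaction test. It was more positive with retinoic acid for 7 genes and more negative for 10, where 10.2% of all genes were called in the one direction and 10.2% in the other. The ligands made up 2 of the 7 and 6 of the 10. After normexp correction, and likewise in the authors' log2 table, the split was 8 and 7.

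Most of these genes differed between cells with and without retinoic acid, and more of them rose than fell. The 2 retinoic acid comparisons use the same untreated and treated arrays as the hairpin comparisons, so they are not independent of them. In shCTR 24 of the 36 rose and 7 fell, where 29% of all genes rose and 33.5% fell. Of all genes called there 46.4% rose, which became 35.4% with median scaling, 36.3% after normexp correction and 53.2% when arrays were scaled over the probes above background on all arrays. In sh4 the share was 46.2%, and 37.8% and 53.8% with these 2 scalings. In sh4 22 rose and 8 fell, against 27.1% and 31.6% of all genes. Both counts of rises include Wnt2, Wnt2b and Dkk2, which entered the tests only through arrays with retinoic acid, so that the filter set their direction. In a count added after seeing the data, over the 33 genes that passed it in an untreated group, 21 rose and 7 fell in shCTR and 19 rose and 8 fell in sh4, where 26.9% and 34.9% of all genes that passed it there rose and fell in shCTR and 25.2% and 32.9% in sh4. The median log2 fold change of the 36, with these 3 included, was 1.56 in shCTR and 1.26 in sh4, whereas that of all genes was -0.12 in both. The median of all genes moved with the scaling, to -0.33 and -0.26 when arrays were scaled to the median and to 0.0050 and -0.0022 when they were scaled over the probes above background on all arrays. By family, 13 of the 18 ligands rose and 1 fell in shCTR, as did 7 and 3 of the 10 receptors and 4 and 3 of the 8 antagonists, with Wnt2 and Wnt2b among the 13 and Dkk2 among the 4. In the same arrays the summed signal of the 12 stem cell markers was 420 to 533 in untreated shCTR and 102 to 110 with retinoic acid, and 387 to 454 and 55.1 to 67.9 in sh4. All 17 endoderm markers rose in shCTR, and 13 rose and 1 fell in sh4. Of the 10 fibroblast markers 9 rose and 1 fell in each hairpin, and of the 12 trophectoderm markers 10 rose and 2 fell in shCTR and 8 rose and 4 fell in sh4. Neural markers gave 5 rises and 3 falls of 14 in shCTR and 4 and 3 in sh4, mesoderm and streak markers 5 and 4 of 11 and 4 and 5, and endothelial and blood markers 4 and 6 of 12 and 3 and 6. Of these markers, Ttr, Afp, Col3a1, Lum, Postn, Elf5, Dcx, Olig2, Foxf1a, Cdh5 and Hba-x entered the tests only through arrays with retinoic acid. The filter favoured rises for them, and the marker counts include them. The part of the marker lists was not tested.

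**Figure D5:**
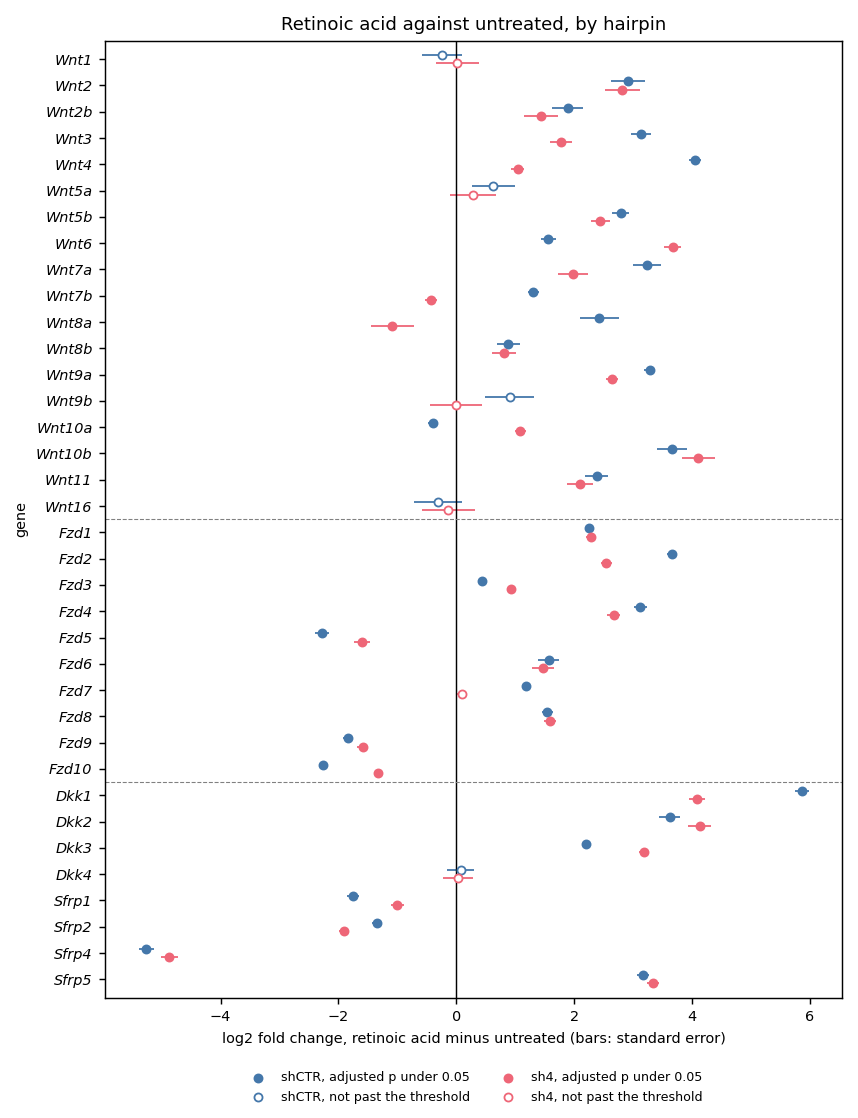
Log2 fold change with retinoic acid for the 36 genes tested, in shCTR (blue) and sh4 (red), with bars for the standard error and filled points for adjusted p under 0.05. Dkk1 lies farthest to the right in shCTR at 5.86 and Sfrp4 farthest to the left at -5.26; values of Wnt2, Wnt2b, Wnt3 and Dkk2 rest on groups that were not well above background.

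Among the ligands, Wnt4 rose with retinoic acid in shCTR by 4.05 ± 0.10, or 16.5-fold (adjusted p = 7.83e-13), and in sh4, which started higher, by 1.04 ± 0.11 (adjusted p = 1.96e-06). The shCTR value became 2.38 after normexp correction. Wnt10b rose by 3.66 ± 0.26 in shCTR, from levels between -7.17 and -6.77 to levels between -3.47 and -3.11, and by 4.11 ± 0.28 in sh4, which became 1.18 and 1.89 after normexp correction. Wnt9a rose by 3.28 ± 0.10 and 2.64 ± 0.11, and Wnt5b by 2.79 ± 0.15 and 2.44 ± 0.16, in shCTR and sh4 respectively. Each of these ligands had no overlap between untreated and treated arrays of a hairpin. Wnt11 rose from levels between -4.37 and -3.95 to levels between -1.78 and -1.69 in shCTR, by 2.38 ± 0.20 (adjusted p = 1.5e-07), and by 2.10 ± 0.22 in sh4, or 1.71 and 1.49 after normexp correction. Wnt8b rose by 0.88 ± 0.19 and 0.81 ± 0.21, but the rise in shCTR became -0.027 after normexp correction, and its second probe gave 0.23 ± 0.29 and 0.07 ± 0.31, neither of them called (adjusted p = 0.521 and 0.865).

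For 3 ligands the direction differed between the hairpins. Wnt7b rose by 1.31 ± 0.09 in shCTR (adjusted p = 2.08e-08) and fell by 0.43 in sh4 (adjusted p = 0.00196). Wnt8a rose by 2.42 ± 0.33 in shCTR (adjusted p = 2.03e-05) and fell by 1.08 in sh4 (adjusted p = 0.0188), a call that was lost without replicate 3 of sh4 with retinoic acid, at -1.03 (adjusted p = 0.0547). After normexp correction the rises in shCTR were 0.63 for Wnt7b and 0.46 for Wnt8a, both called. Wnt10a went the other way, falling by 0.39 in shCTR (adjusted p = 0.00128) and rising by 1.08 ± 0.09 in sh4 (adjusted p = 2.4e-07). Wnt6 rose in both, by 1.56 ± 0.13 in shCTR and by 3.67 ± 0.14 in sh4, and Wnt7a by 3.23 ± 0.24 and 1.98 ± 0.26, of which the first was 1.13 after normexp correction. The interaction is the test of the difference between the hairpins, and all 5 of these ligands passed it, Wnt7a with the exceptions already given.

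Ligands that were dim in untreated cells can be given only as bounds. The bounds hold for the processed signal only, and each adjusted p beside them is that of the measured difference. Wnt3 was at least 5.76-fold higher with retinoic acid in shCTR (adjusted p = 2.09e-09; measured means -5.26 and -8.39) and rose by 1.78 ± 0.19 in sh4, or 0.61 after normexp correction. Wnt2, which with Wnt2b specifies the lung, was well above background on all 7 arrays with retinoic acid and on 0 of 8 without, and was at least 2.19-fold higher in shCTR (adjusted p = 6.14e-07) and at least 2.07-fold in sh4 (adjusted p = 2.27e-06). Its measured means were -9.57 and -6.66 in shCTR and -9.56 and -6.74 in sh4. Wnt2b was at least 1.03-fold higher in shCTR (adjusted p = 2.83e-05; measured means -7.74 and -9.63). In sh4 Wnt2b was not well above background with or without retinoic acid, and no fold is given although its adjusted p was 0.000712. The rises of Wnt2 and Wnt2b in shCTR were not called after normexp correction, where their fitted values were, with the sign turned, -0.0082 and -0.16. Wnt3 in shCTR (adjusted p = 0.0588) and Wnt2 in sh4 (0.514) lost their calls there too. Wnt1, Wnt5a, Wnt9b and Wnt16 were not called in either hairpin, and with slide as a block Wnt5a at 0.63 (adjusted p = 0.0165) and Wnt9b at 0.91 (adjusted p = 0.00221) rose in shCTR.

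The Frizzled receptors divided into 7 that rose and 3 that fell in shCTR, where 29% of all genes rose and 33.5% fell. Fzd2 rose by 3.66 ± 0.09 in shCTR and 2.54 ± 0.09 in sh4, and Fzd4 rose from levels between -3.64 and -3.23 to levels between -0.47 and -0.07 in shCTR, by 3.12 ± 0.11, and by 2.67 ± 0.12 in sh4. Fzd1 rose by 2.26 ± 0.08 and 2.29 ± 0.08, Fzd6 by 1.57 ± 0.18 and 1.47 ± 0.19, and Fzd8 by 1.54 ± 0.09 and 1.59 ± 0.10. After normexp correction the shCTR values were 0.95 for Fzd6 and 0.81 for Fzd8, and in the authors' log2 table Fzd1 was 1.67 in shCTR and Fzd8 0.99 in sh4. Fzd3 rose less, by 0.43 ± 0.07 in shCTR, not called under median scaling (adjusted p = 0.149), and by 0.93 ± 0.08 in sh4. In none of these 6 did treated and untreated arrays of one hairpin overlap. Fzd5 fell by 2.28 in shCTR and 1.60 in sh4, Fzd10 by 2.27 and 1.32, and Fzd9 by 1.83 and 1.59. Fzd7 rose by 1.18 ± 0.07 in shCTR (adjusted p = 2.94e-09) and was not called in sh4, at 0.09 ± 0.07 (adjusted p = 0.309). Its second probe rose by 3.14 ± 0.35 in shCTR (adjusted p = 2.32e-06) and by 2.39 ± 0.37 in sh4 (adjusted p = 7.9e-05). The 2 probes of Fzd7 thus disagree on the response of sh4 and on the size of the rise in shCTR.

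Among the 36 genes, the largest fitted rise and the largest fall in shCTR were those of antagonists. Dkk1 rose 58.1-fold in shCTR, by 5.86 ± 0.12 (adjusted p = 1.45e-13), and 16.9-fold in sh4. The log2 values of Dkk1 were 5.01 and 3.45 after normexp correction. Sfrp4 fell 38.4-fold in shCTR, by 5.26 (adjusted p = 5.93e-13), and 29.2-fold in sh4. The fitted Sfrp4 values were -3.17 and -2.67 after normexp correction, still called. Sfrp5 and Dkk3 rose as well, by 3.17 ± 0.10 and 2.21 ± 0.08 in shCTR and by 3.34 ± 0.11 and 3.18 ± 0.08 in sh4. Sfrp1 fell by 1.75 in shCTR and 1.002 in sh4, and Sfrp2 by 1.35 and 1.90. Dkk2, dim in all untreated arrays, was at least 2.82-fold higher with retinoic acid in shCTR (adjusted p = 7.51e-10; measured means -6.29 and -9.91) and at least 3.87-fold in sh4 (adjusted p = 5.81e-10; measured means -5.84 and -9.97). The shCTR rise of Dkk2 was not called after normexp correction (adjusted p = 0.504), and the sh4 value was 0.57. Dkk4, an antagonist induced by beta-catenin in other tissues, was not called in any comparison, with 95% intervals of -0.44 to 0.58 for retinoic acid in shCTR and -0.72 to 0.30 for the hairpin in untreated cells.

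The rest of the pathway was described from 7 lists of other genes, 111 of whose 117 members were tested. In untreated cells 32 of the 111 were higher in sh4 and 14 lower, and with retinoic acid 31 were higher and 10 lower. The shares of all genes tested are again 14.4% and 14.1% in untreated cells and 10.9% and 10.3% with retinoic acid. Among 11 genes of secretion and agonists, Wls, the carrier that brings Wnts to the surface, rose by 1.33 ± 0.10 in untreated sh4 and 0.69 ± 0.11 with retinoic acid, and the glypican Gpc4 rose by 1.49 ± 0.08 and 1.08 ± 0.09. Porcn, which adds the lipid to Wnts, fell by 0.61 and 0.72. Of the 13 co-receptors and turnover genes 7 were higher in untreated sh4 and 9 with retinoic acid, and 0 were lower. Rnf43, a ligase that removes Frizzled from the surface, rose by 1.68 ± 0.10 and 0.85 ± 0.10. Of 11 other extracellular inhibitors 2 were higher and 3 lower in untreated sh4, and 1 higher and 4 lower with retinoic acid, where Frzb, a relative of the Sfrp genes, fell by 2.60 (adjusted p = 0.000201).

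Of 20 cytoplasmic transducers 3 were higher and 2 lower in untreated sh4, among them Btrc, which marks beta-catenin for destruction, at -0.82 ± 0.07. Of 16 nuclear factors 4 were higher and 1 lower, and Lef1 rose by 1.26 ± 0.14 in untreated sh4 and 1.06 ± 0.15 with retinoic acid. Of 20 genes of the planar polarity and calcium branch 3 were higher and 3 lower, with Camk2d at 1.47 ± 0.06. Among all genes 14.4% were higher and 14.1% lower in untreated sh4, and 10.9% and 10.3% with retinoic acid. The counts of the cytoplasmic and planar polarity lists in untreated cells were near those shares. Some genes stand on more than one list. Of 27 genes that beta-catenin is known to activate in some tissue 12 were higher and 2 lower in untreated sh4, and 9 were higher and 2 lower with retinoic acid. Sp5 rose by 1.77 ± 0.11 (adjusted p = 5.55e-08) and 0.75 ± 0.12 (adjusted p = 0.000534). Nkd1, a feedback inhibitor, fell by 0.21 in untreated sh4 (adjusted p = 0.0285) and rose by 0.59 ± 0.07 with retinoic acid (adjusted p = 4.83e-05). Axin2, the most used reporter of the pathway, was not called, at -0.68 ± 0.75 in untreated cells (95% interval -2.31 to 0.94) and 0.38 ± 0.81 with retinoic acid (95% interval -1.38 to 2.14). The largest rise on that list, 4.16 ± 0.14 for Cdx2, is of a gene that is also on the trophectoderm list.

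With retinoic acid 56 of the 111 rose in shCTR and 27 fell, and 56 rose and 25 fell in sh4, where 29% and 33.5% of all genes rose and fell in shCTR and 27.1% and 31.6% in sh4. Rspo3, an R-spondin that amplifies Wnt signals, rose by 4.25 ± 0.11 in shCTR and 4.71 ± 0.12 in sh4, and Gpr124 by 4.71 ± 0.10 and 4.02 ± 0.10. Frzb, not well above background in untreated shCTR, was at least 26.9-fold higher in shCTR with retinoic acid (adjusted p = 1.27e-08). Lgr5, the receptor of R-spondins, was at least 11.04-fold higher in shCTR (adjusted p = 5.8e-10) and at least 24.2-fold in sh4 (adjusted p = 1.43e-09). Lgr5 was not well above background on any untreated array. It entered the tests only through arrays with retinoic acid, so the filter set its direction. The counts of rises among the 111 include Lgr5 and any other such genes, and no count without them was made. For 35 of the 111 the hairpin effect differed between treatments, more positive with retinoic acid for 19 and more negative for 16, against 10.2% of all genes in each direction.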

How the data were processed

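Gene expression was measured on 15 one-colour Agilent arrays of 43020 spots each. Each array's spot intensities were deposited as scanner output, extracted with Agilent Feature Extraction 10.7.3.1 per the file headers, which subtracts background and gives a processed signal with positions on mm9. A log2 table of the same arrays was also deposited by the authors; the normalisation of its log2 values is not described in any source at hand, and it served as an alternative.

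The processed signal was taken as log2 minus the 75th percentile of each array. Spots with an outlier mark were omitted, which dropped 117 of 39429 probes, and spots of one probe were averaged. Each gene was read by its probe of highest mean signal, and a gene was kept if 3 or more arrays of any group had it well above background. The 4 groups were fitted together in limma 3.58.1 (R 4.3.3, package data.table, version 1.17.8) with empirical Bayes moderation and no covariates, and p-values were adjusted over 25087 genes. The 5 tests were the hairpin effect in each treatment, the retinoic acid effect in each hairpin, and their interaction. The limma script was tested on simulated data. The number of arrays limits the precision.

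The arrays lay on 4 slides, and slide was used as a block in an alternative. Deviations from the group means correlated at 0.12 to 0.61 for 21 of 21 pairs on one slide. Arrays were not paired by replicate number. Levels below the array's lowest signal well above background were treated as bounds. A bound holds for the processed signal only, and the adjusted p printed with it is that of the measured difference.

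The genes and the lists of other pathway genes and markers were chosen with earlier results of these data known. All genes of the set could be named, and those called in a hairpin comparison or the interaction have every array value. Of the other pathway lists, at most the 2 largest called rises and the 2 largest called falls of a list and comparison were named, with Axin2, Lef1, Sp5 and Nkd1 always. Alternatives were other background corrections and normalisations, filters, probe rules, blocks, array weights and leaving out each array. Promoter windows came from RefSeq on GRCm38.p6 and were not joined to the mm9 positions.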

Additional observations from a re-analysis of the deposited data

Results flagged for a closer look

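Among 99 groups of 4 arrays examined for these genes and their levels, 5 held 1 array far from the other 3 by Dixon's gap test, and chance gives about 1 in 20 groups. With retinoic acid in shCTR, replicate 4 was the stray array for Sfrp2 at -2.54 and for Sfrp4 at -6.54, and replicate 3 for Wnt7a at -3.27. Replicate 4 of untreated shCTR stood apart for Sfrp5 at -0.69, and replicate 1 of untreated sh4 for Wnt10a at -3.70.

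For 17 genes the hairpin effect differed between treatments by the interaction test in limma (adjusted p under 0.05), given as the effect with retinoic acid minus that without. Of all genes tested, 10.2% were called in each direction. Ligands gave -3.51 for Wnt8a, -3.004 for Wnt4, -1.73 for Wnt7b, -1.35 for Wnt3, -1.25 for Wnt7a and -0.63 for Wnt9a, whose effects were less positive with retinoic acid, and 2.11 for Wnt6 and 1.47 for Wnt10a. After normexp correction the Wnt3 and Wnt7a values were 0.29 and 0.31, neither of them called, and Wnt9a was not called either. Receptors gave -1.12 for Fzd2, -1.09 for Fzd7, 0.94 for Fzd10, 0.68 for Fzd5 and 0.50 for Fzd3. Antagonists gave -1.78 for Dkk1, -0.54 for Sfrp2, 0.98 for Dkk3 and 0.75 for Sfrp1.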

How the results depend on the processing

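Of the 113 differences called among the ligands, receptors and antagonists, 108 were called in every fit that left out 1 array, and the others were Fzd4, Fzd6 and Dkk3 (hairpin with retinoic acid), the Wnt7a interaction and Wnt8a (retinoic acid in sh4). Over the other planned and added settings, 1373 of 1430 values kept direction and call, 48 kept direction only and 9 turned. Those that turned after normexp correction were Wnt2b (-0.16), Wnt2 (-0.0082) and Wnt8b (-0.027) for retinoic acid in shCTR, Wnt2b (-0.074) in sh4, and the interactions of Wnt3 (0.29) and Wnt7a (0.31). In the authors' deposited log2 table those were Wnt2b in sh4 (-0.0081) and the interactions of Wnt3 (0.053) and Wnt7a (0.083). Among the other pathway genes, Lgr5 (-0.14) and Shisa3 (-0.072) turned in untreated cells after normexp correction. The cause was not tested. Moves in size by over 1.5 times were met in 34 called differences after normexp correction, in 37 in the deposited table and in 2 with the mean over a gene's probes, where Fzd7 for retinoic acid in shCTR became 2.16 and Fzd5 in sh4 -2.23.

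Called counts of the 36 genes without 1 array were 18 to 20 for the hairpin in untreated cells, 14 to 19 with retinoic acid, 31 to 32 for retinoic acid in shCTR, 29 to 30 in sh4, and 16 to 18 for the interaction. Those of the other pathway genes were 39 to 46, 31 to 44, 81 to 86, 75 to 81 and 27 to 35. Normexp correction called 30 of the other pathway genes for the untreated hairpin effect, where 46 were called, and 21 for the interaction, where 35 were. Scaling to the median called 29 for the untreated hairpin effect, 27 for the hairpin with retinoic acid, where 41 were called, and 22 for the interaction. With the replicate block, called counts of the 36 genes were 19, 18, 32, 30 and 18. Same-numbered samples correlated over 0.1 in 18 of 21 pairs, with the lowest at -0.53, so not every pair did and the numbers were not used to pair samples; they equal the slide number for all arrays but 2 of sh4 with retinoic acid. Leaving out the 3 arrays rated for evaluation, chosen after seeing the data, gave 17, 15, 32, 30 and 16. Fzd4 was called for the interaction with slide as a block (adjusted p = 0.0312). Signal over background limits Wnt2, Wnt2b, Wnt3, Wnt3a and Dkk2.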

Other observations

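Several ligand genes lie in neighbouring pairs, and the members of a pair were not always called together. On GRCm38.p6 the starts of Wnt3 and Wnt9b face away from each other on chromosome 11, and Wnt3 was called for the hairpin in both treatments while Wnt9b was called in neither (0.88 ± 0.42 in untreated cells and -0.03 ± 0.45 with retinoic acid). Both Wnt3 calls were lost after normexp correction. With slide as a block Wnt9b was called higher in untreated sh4 (limma adjusted p = 0.00641). Both genes were dim in untreated shCTR. Wnt9a was called in both, and its neighbour Wnt3a was not well above background on any array. Wnt6 and Wnt10a were both higher in sh4 with retinoic acid only, by 1.84 and 1.37. Wnt10b and Wnt1, neighbours on chromosome 15, were not called for the hairpin, while with retinoic acid in shCTR Wnt10b rose by 3.66 ± 0.26 and Wnt1 was not called, at -0.24 ± 0.34. Whether the members of a pair differ from each other, and whether position bears on these values, was not tested.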
